A study of Gossypium hirsutum with 16 samples.

Results

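The genes described here are 150 cotton genes whose transcripts were lower, by a graded amount and in both strains, in shoot apices labelled as silenced for GhBRC1 than in control apices. They were chosen from the measured values themselves, out of 70422 gene IDs in the deposited table. A gene qualified if the median level over the 4 silenced libraries was at least 1 FPKM in each strain (a relative level, in which fragments are scaled to gene length and library size), and if the control median was 2 to 8 times the silenced median in each strain. Of 331 genes within these limits, the 150 with the highest value of the smaller of their 2 ratios were taken. The fall on silencing is therefore the reason these genes are here and is described without a test.

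Shoot tips of Gossypium hirsutum (upland cotton) seedlings gave 16 RNA libraries, sequenced on an Illumina instrument. Jinxian-short branch, written JX here and labelled as having a short fruit branch, was sampled as JX silenced (4 libraries, GhBRC1 silenced by VIGS) and JX control (4 libraries). Strain 3798, labelled nulliplex-branch, a growth form in which flowers are borne without an elongated fruiting branch, was sampled as 3798 silenced (4 libraries, GhBRC1 silenced by VIGS) and 3798 control (4 libraries). In the order used below the groups are JX silenced, 3798 silenced, JX control and 3798 control. The labels give no further allele, agent or age, do not say whether control plants received an empty virus vector, and are silent on whether each library is a separate plant or pool. P-values therefore measure the spread among these libraries only, and that spread could be technical.

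BRC1 belongs to the TCP family of plant transcription factors. In Arabidopsis and other plants it acts in axillary buds, where it restrains their outgrowth and is known to respond to strigolactone, cytokinin and light signals. In virus-induced gene silencing (VIGS) a recombinant virus carries a fragment of the target gene, and the RNA interference machinery of the plant then lowers the matching transcript, usually in part and unevenly between plants and tissues. The files and the reference table used here do not pair the gene IDs with names. No member can therefore be given a function, the level of the GhBRC1 transcript was not analysed here, and genes are given by ID, whose letters and first digits name the subgenome (A or D) and chromosome.

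No sequence is shown for the members, since none of the sources used here holds one for these IDs. Total FPKM per library was between 552185 and 603167. Sequencing depth relative to 3798 control 1 was estimated from the FPKM values, without read counts, at between 0.909 and 1.33. Whole reads were not recovered from these values, so the estimate is rough, and absolute depth is unknown. Some libraries stood apart. When limma weighted libraries by their spread over all tested genes, the lowest weights were 0.283 for 3798 control 3, 0.424 for JX silenced 4 and 0.603 for 3798 silenced 4. Over all tested genes, deviations from the group mean in JX silenced 4 correlated with those in 3798 control 3 (r = 0.44) and 3798 silenced 4 (r = 0.36), as did those of 3798 silenced 4 with 3798 control 3 (r = 0.44), the highest of 96 pairs of libraries from different groups. These are correlations across genes, which are not independent replicates, and are given as a description. The counts of strain calls and the members' shared deviation are given with and without JX silenced 4 below.

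The typical member was present at a few FPKM in silenced apices and at about 8 FPKM in controls. The median over the 150 members was 2.51, 2.22, 1.98 and 4.84 FPKM in JX silenced libraries 1 to 4 and 1.82, 2.23, 2.12 and 2.76 FPKM in 3798 silenced libraries 1 to 4. In the controls it was 8.04, 7.74, 9.93 and 8.37 FPKM in JX and 7.76, 9.33, 9.58 and 6.51 FPKM in 3798. Every silenced library was below every control library in this median, and JX silenced 4 was the highest of the silenced libraries. The median of all 55040 tested genes did not follow this pattern, at 4.58 to 4.84 FPKM in silenced and 4.48 to 4.82 FPKM in control libraries. Together the members made up 0.0855% to 0.240% of the total FPKM of a silenced library and 0.286% to 0.427% of that of a control library. In bulk tissue, fewer cells of a type that expresses a gene and less RNA of it per cell cannot be told apart.

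**Figure D1:**
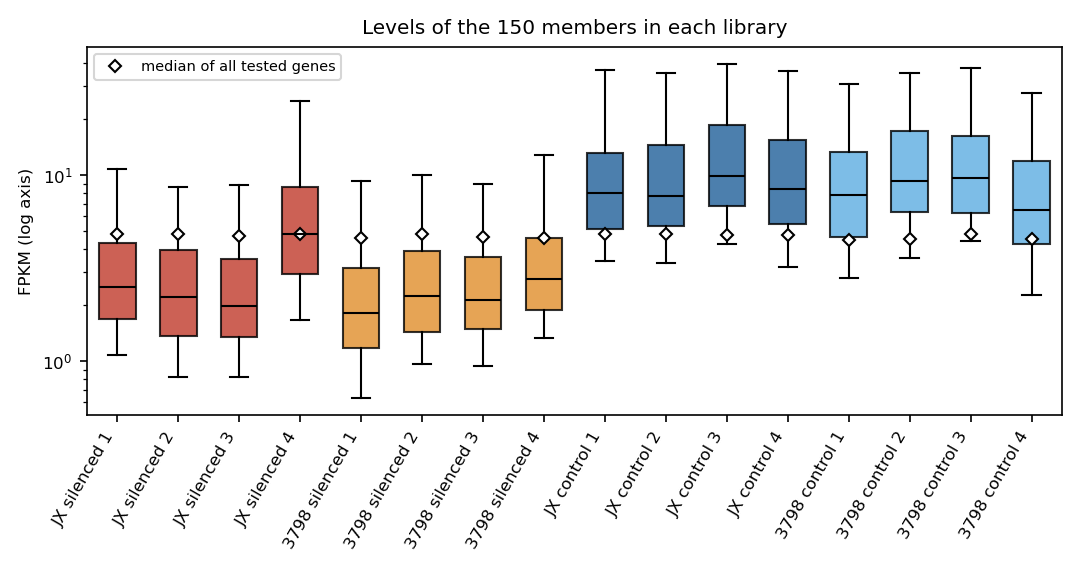
FPKM (log axis) of the 150 members in each of the 16 libraries. Boxes span the quartiles with the median as a line, whiskers run from the 5th to the 95th percentile of members, and diamonds mark the median of all 55040 tested genes, which stays between 4.48 and 4.84 FPKM while the members' median is 1.82 to 4.84 FPKM in silenced and 6.51 to 9.93 FPKM in control libraries.

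The control to silenced ratio of medians ran between 2.501 and 7.07 in JX, with a median of 3.35, and between 2.49 and 7.57 in 3798, with a median of 3.46. The smaller of the 2 ratios was at least 3 in 78 members, at least 4 in 24 and at least 5 in 8. For 118 members the ratios of the strains lay within 1.5 times of each other. The ratio was larger in JX for 68 members and larger in 3798 for 82. The last gene inside the limit of 150, Gh_D02G145200, had ratios of 2.92 in JX and 2.49 in 3798, and the first outside, Gh_A13G071900, had 2.48 and 2.71. Near the upper limit, the member Gh_A06G001800 had a ratio of 7.57 in 3798, and the gene Gh_D10G267900, with 8.04 in JX, was left out. Near the lower limit on level, the member Gh_D06G173800 had a median of 1.001 FPKM in 3798 silenced, and Gh_A01G186200 was left out at 0.996 FPKM. The last gene within all limits before the count of 150 was applied, Gh_D08G084600, had ratios of 2.001 in JX and 2.21 in 3798.

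**Figure D2:**
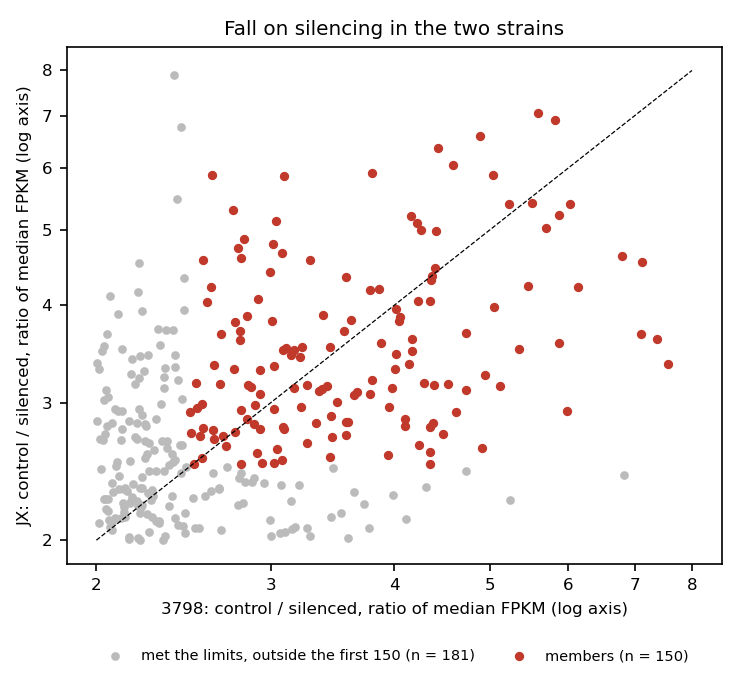
Ratio of the control to the silenced median FPKM in 3798 (x, log axis) and in JX (y, log axis) for the 331 genes within the limits. Red points are the 150 members, grey points the 181 others and the dashed line marks equal ratios; members fill the corner where both ratios are at least 2.49, on both sides of the line.

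Because the limits used these contrasts, counts of members called in them follow from the choice. By limma over all tested genes (Benjamini-Hochberg adjusted p under 0.05), 142 members were lower in JX silenced than in JX control, where 13.7% of all tested genes were, and 137 were lower in 3798 silenced than in 3798 control, where 5.28% were. The 4 silenced and 4 control libraries did not overlap, with silenced below control, for 116 members in JX, against 14.7% of all tested genes, and for 134 members in 3798, against 7.22%. In 105 members the groups were apart in both strains, which they were in 3.04% of all tested genes. None of the members was listed at 0 in any library, and the lowest value was 0.207 FPKM.

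The leading members show how different the libraries behind similar ratios were. Gh_D09G222200, on chromosome D09 and first in rank, had 8.83, 4.20, 0.730 and 19.7 FPKM in JX silenced libraries 1 to 4 and 1.40, 0.950, 0.962 and 6.18 FPKM in 3798 silenced libraries 1 to 4. In controls it had 28.8, 45.2, 44.8 and 45.9 FPKM in JX and 7.86, 5.90, 40.1 and 4.22 FPKM in 3798. The groups were apart in JX but overlapped in 3798, where silenced library 4 exceeded 2 of the 4 controls and control library 3 was at the JX level. Gh_D09G146200, on the same chromosome and second in rank, had 2.78, 1.20, 1.42 and 6.71 FPKM in JX silenced and 1.23, 2.63, 3.20 and 3.65 FPKM in 3798 silenced libraries. Its controls were at 7.22, 12.3, 21.1 and 17.4 FPKM in JX and at 14.5, 22.4, 16.6 and 15.99 FPKM in 3798. Here both strains had every silenced library below every control.

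Of the 5 members on IDs called newGene, which have no chromosome in their name, the first in rank was Gossypium_hirsutum_newGene_20487. It had 3.24, 2.98, 2.502 and 11.4 FPKM in JX silenced and 2.52, 4.68, 2.51 and 2.78 FPKM in 3798 silenced libraries. In controls it had 12.96, 20.6, 20.8 and 12.8 FPKM in JX and 16.4, 11.3, 18.2 and 9.91 FPKM in 3798. The levels were alike in both strains apart from JX silenced 4, which came close to the lowest JX control.

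The most abundant members were Gh_A11G152000 on chromosome A11 and Gh_D01G117700 on chromosome D01. Gh_A11G152000 had 96.1, 65.1, 43.2 and 208 FPKM in JX silenced and 35.3, 53.1, 41.2 and 92.2 FPKM in 3798 silenced libraries, against 207, 204, 221 and 166 FPKM in JX control and 121, 120, 136 and 101 FPKM in 3798 control libraries. In JX silenced 4 it reached the level of the JX controls. Gh_D01G117700 had 21.6, 20.8, 22.7 and 59.8 FPKM in JX silenced and 20.4, 20.6, 36.2 and 26.9 FPKM in 3798 silenced libraries, against 59.9, 53.7, 89.8 and 65.7 FPKM in JX control and 76.2, 128, 93.7 and 60.1 FPKM in 3798 control libraries. Again JX silenced 4 alone overlapped with its controls.

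Other members were steady from library to library. Gh_Contig00366G002100, on an unplaced contig, had 1.83, 2.24, 2.002 and 2.68 FPKM in JX silenced and 1.94, 1.46, 1.77 and 1.41 FPKM in 3798 silenced libraries, against 8.38, 9.31, 8.41 and 7.38 FPKM in JX control and 6.11, 6.99, 6.64 and 6.34 FPKM in 3798 control libraries. Every silenced library was far below every control library in both strains. The ratio of medians was 3.95 in JX and 4.02 in 3798.

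**Figure D3:**
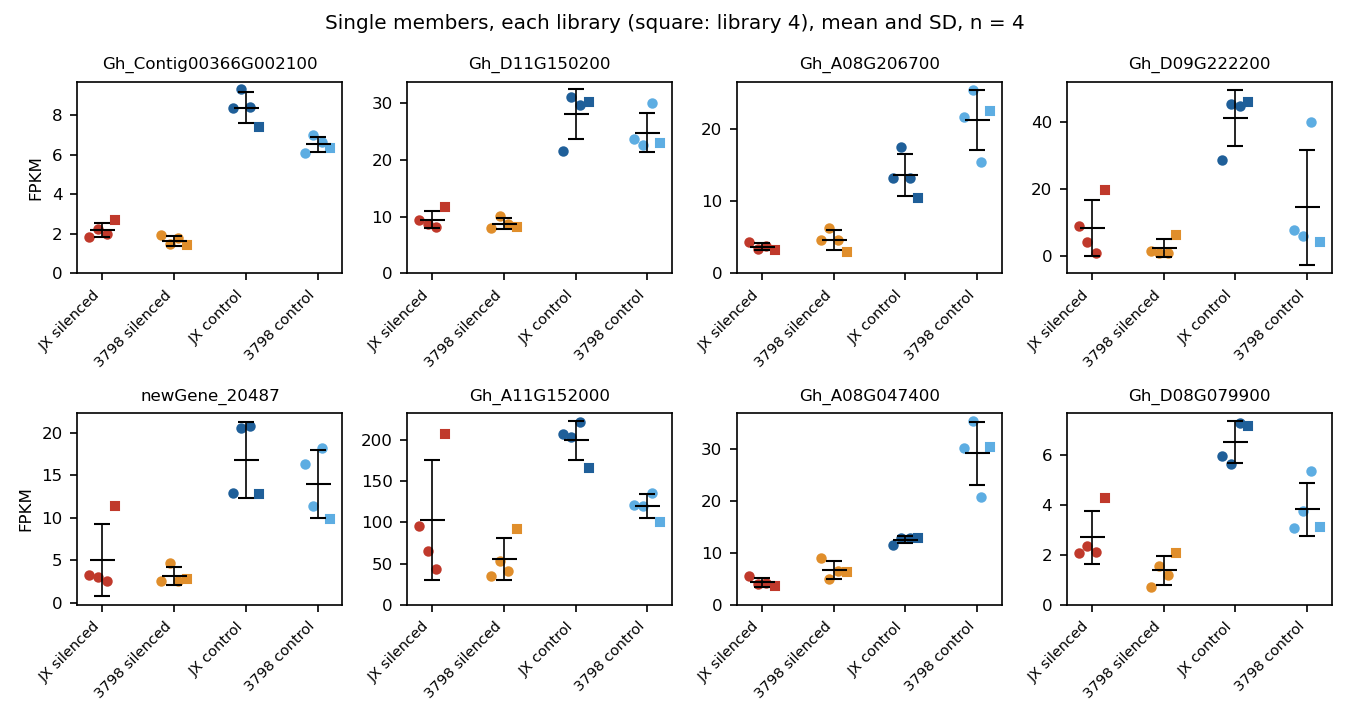
FPKM of 8 members in the 4 groups. Points are libraries (square for library 4), lines and bars the mean and SD over 4 libraries; the members Gh_Contig00366G002100, Gh_D11G150200 and Gh_A08G206700 have JX silenced 4 close to the other JX silenced libraries and below every control, while in newGene_20487 (11.4 FPKM) and Gh_A11G152000 (208 FPKM) it lies far above them.

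To read the fall in libraries that took no part in the choice, the rule was applied again without each library in turn and the first 150 genes were looked up in the library left out. The libraries of the other label, against which it was read, still took part in that choice, so these counts are given as a description. Among the 8 silenced libraries, the number of the 150 genes below every control of the strain was 146, 143 and 147 for JX silenced 1 to 3, 112 for JX silenced 4, and 149, 147, 148 and 134 for 3798 silenced 1 to 4. Between 21.1% and 35.5% of all tested genes lay on that side in the same libraries. Among the 8 control libraries, 129 to 143 of the 150 in JX and 131 to 148 in 3798 were above every silenced library of the strain, where 24.0% to 34.2% of all tested genes were.

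The size of the fall in the left-out library set JX silenced 4 further apart. On the log2(FPKM + 0.5) scale, the median difference between the control median and the left-out library over the 150 genes was 1.49, 1.74 and 1.70 for JX silenced 1 to 3 and 0.65 for JX silenced 4. It was 1.76, 1.53, 1.57 and 1.31 for 3798 silenced 1 to 4. A fall of at least 2-fold on this scale was seen in 138 to 142 of the 150 genes for JX silenced 1 to 3 and in 43 for JX silenced 4, where 5.32% to 7.86% and 2.05% of all tested genes had one. In 3798 it was seen in 136 to 140 for silenced libraries 1 to 3 and in 96 for library 4, with 2.86% to 3.20% of all tested genes in the 4 libraries. For the left-out control libraries the median difference was 1.45 to 1.80 in JX and 1.31 to 1.81 in 3798. In all tested genes the same median lay between -0.04 and 0.04 for each of the 16 libraries.

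The genes were thus intermediate in JX silenced 4. With the median of the other 3 silenced libraries of the strain as 0% and the control median as 100% on the log2(FPKM + 0.5) scale, the median member stood at 59.6% in JX silenced 4 and at 16.9% in 3798 silenced 4. The other 6 silenced libraries stood between -16.0% and 1.77%. In JX silenced 4, 34 members stood under 25%, 76 between 25% and 75% and 40 above 75%. In 127 members JX silenced 4 was the highest of the JX silenced libraries, which it was for 34.3% of all tested genes, and in 32 members it was at or above the lowest JX control. Genes chosen by the mirrored limits, higher in silenced libraries and cut to their first 150 in the same way, stood at a median of 21.0% in JX silenced 4 and 18.9% in 3798 silenced 4. The level of GhBRC1 in each library was not analysed here, and the part that plant, dissection or RNA differences had in JX silenced 4 was not tested.

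The positions of a member in the fourth silenced library of either strain were also compared. Of the 40 members above 75% in JX silenced 4, 15 were at 25% or more in 3798 silenced 4, as were 38 of the 76 in the middle and 8 of the 34 that stayed under 25%. The 34 had median ratios of 3.57 in JX and 3.45 in 3798, and the 40 had 3.13 in JX and 4.11 in 3798. JX silenced 4 enters the JX silenced median, and the JX fall enters the position. The JX ratios are therefore not independent of this split.

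**Figure D4:**
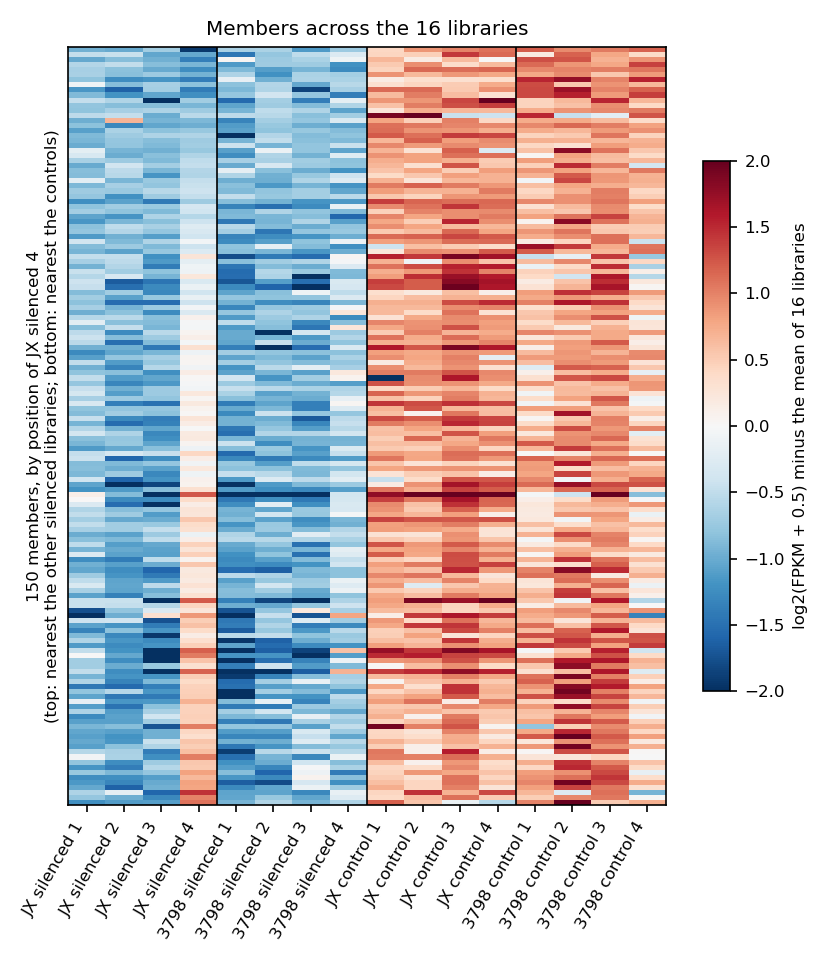
Level of each member in each library as log2(FPKM + 0.5) minus its mean over the 16 libraries (blue low, red high). Rows are the 150 members sorted by the position of JX silenced 4 between the other JX silenced libraries and the JX controls; the column of JX silenced 4 changes from blue at the top (34 members under 25%) through pale (76 members) to red at the bottom (40 members above 75%).

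Members also varied more within groups than all tested genes did. They were chosen from these values, and in silenced libraries other than JX silenced 4 their median level was below that of all tested genes. No genes matched in level were set beside them, so the part of level or choice in this was not tested. The SD within groups on the log2(FPKM + 0.5) scale had a median of 0.45 over the members and of 0.23 over all tested genes, and 137 of the 150 were above that of all tested genes. Without JX silenced 4 the medians were 0.36 and 0.22, and 124 of the 150 were above. Their deviations from the group means went together: the correlation between members, over the 16 libraries and averaged over all pairs, was 0.36, and 0.19 without JX silenced 4, where pairs of all tested genes averaged 0.00672 and 0.00745. The points share their libraries, so this is a description. In JX control 3, 124 of the 150 were above their group mean, in 3798 control 2 and 3 it was 113 and 111, and in 3798 control 4 it was 29. Control libraries therefore differed in the level of the group as well, though less than JX silenced 4 did: their median deviation was between -0.24 and 0.19, against 0.70 in JX silenced 4.

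The 13 steadier members, with a within-group SD at or below the median of all tested genes, had ratios between 2.68 and 5.21. In JX silenced 4 they stood at a median of 15.5%, and 11 of them were under 25%, against 62.4% and 23 of 137 in the rest. A member with a high value in JX silenced 4 has a larger SD for that reason, so the 2 measures are not independent. In controls the 13 had a median level of 12.4 FPKM in JX and 14.99 FPKM in 3798, against 8.18 and 7.84 FPKM in the other 137.

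The difference of JX from 3798, averaged over silenced and control libraries, is orthogonal to both silencing contrasts in this balanced design. That holds for group means of libraries with equal spread, while library weights ran from 0.283 to 1.67. The choice used ratios of medians from the same libraries, with limits of 2 and 8. A floor of 1 FPKM also applied to the silenced medians of each strain. The averaged difference is the strain comparison tested here, with p-values not wholly free of the choice. The strain difference within controls or within silenced libraries uses medians that entered the ratios, so values and counts for these are a description. By limma, 14 members were higher in JX, where 13.5% of all tested genes were, and 4 were lower in JX, where 7.96% were. That is 9.33% and 2.67% of the members. Without JX silenced 4 the numbers were 6 and 5, and without 3798 control 3 they were 26 and 5. Of all tested genes, 21.4% were called in either direction, 14.3% without JX silenced 4 and 32.5% without 3798 control 3. The log2 difference had a median of 0.09 over the members and 0.03 over all tested genes. It was above 0 in 100 of the 150 and in 55.0% of all tested genes, and in 76 of the 150 without JX silenced 4. The median standard error was 0.20 over the members and 0.12 over all tested genes.

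Gh_A08G047400, on chromosome A08, had the clearest strain difference among the members. It was at 5.601, 4.04, 4.23 and 3.59 FPKM in JX silenced against 9.03, 4.99, 6.44 and 6.42 FPKM in 3798 silenced libraries, and at 11.51, 12.9, 12.8 and 12.9 FPKM in JX control against 30.3, 35.4, 20.8 and 30.5 FPKM in 3798 control libraries. JX was lower with both labels, with all 4 JX controls below all 4 controls of 3798 and an overlap in silenced libraries. The log2 difference averaged over labels was -0.86 (SE 0.122, limma adjusted p = 0.0036), and the difference was -1.17 in controls (SE 0.172) and -0.56 in silenced libraries (SE 0.172). Its ratio of control to silenced medians was 3.12 in JX and 4.73 in 3798.

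Gh_D12G179000, on chromosome D12, was lower in JX as well. It had 1.95, 2.25, 2.05 and 1.43 FPKM in JX silenced against 4.63, 2.52, 2.72 and 4.17 FPKM in 3798 silenced libraries, and 7.41, 5.06, 7.24 and 4.48 FPKM in JX control against 11.7, 11.4, 7.52 and 8.77 FPKM in 3798 control libraries. The strains were apart with either label. The log2 difference averaged over labels was -0.68 (SE 0.145, limma adjusted p = 0.0089) and that in silenced libraries -0.70 (SE 0.205).

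Among members higher in JX, the smallest p-values were those of Gh_D08G079900 on chromosome D08 and Gh_Contig00366G002100. The largest difference was that of the first-ranked member, Gh_D09G222200, at 1.68 with a wide error (SE 0.566, limma adjusted p = 0.048). Gh_D08G079900 had 2.07, 2.35, 2.09 and 4.25 FPKM in JX silenced against 0.717, 1.53, 1.18 and 2.09 FPKM in 3798 silenced libraries, and 5.95, 5.61, 7.27 and 7.14 FPKM in JX control against 3.07, 3.75, 5.34 and 3.11 FPKM in 3798 control libraries. Its log2 difference averaged over labels was 0.74 (SE 0.168, limma adjusted p = 0.011), and without JX silenced 4 it was 0.64 and still called. In Gh_Contig00366G002100 the average difference was 0.33 (SE 0.0838, limma adjusted p = 0.015), and the values given above put JX above 3798 in every pair of control libraries.

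In control libraries alone, 10 members were higher in JX than in 3798, where 17.6% of all tested genes were, and 6 were lower, where 12.2% were. The balance of directions was not stable. There were 6 higher and 9 lower after median-ratio scaling, 4 and 9 after quantile normalization, 4 and 6 at a pseudocount of 0.1, 5 and 5 with no filter on low values, 5 and 6 with a replicate block, and 34 and 11 under library weights. Of all genes fitted, 22.3% were called in either direction without the filter, 43.2% under library weights and 28.3% to 29.9% in the others. The main fit called 29.8%. The count of members was 30 without JX silenced 4, whose spread enters the shared estimate, where 31.8% of all tested genes were called. Without 3798 control 3 it was 28, where 38.8% were. Without any 1 of 3798 control 1, 2 or 4 it was 5, 4 or 7, where 20.1%, 19.3% or 21.0% were. Without any 1 of JX control 1 to 4 it was 9, 9, 7 or 6, where 24.3%, 26.3%, 22.6% or 23.1% were. Gh_A05G352500, on chromosome A05, had 8.58, 7.96, 7.87 and 8.03 FPKM in JX control and 3.58, 2.93, 5.66 and 3.46 FPKM in 3798 control libraries, which differed by 1.002 in log2 (SE 0.271). Gh_D11G152400, on chromosome D11, had 3.38, 7.35, 6.83 and 6.21 FPKM in JX control and 16.4, 13.1, 8.16 and 10.4 FPKM in 3798 control libraries, which differed by -0.96 in log2 (SE 0.252). Neither member overlapped between the control groups, and in silenced libraries their log2 differences were 0.49 and 0.05.

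In silenced libraries limma called no member in either direction, and 0% of all tested genes were called higher and 0% lower. At an unadjusted p under 0.05 there were 5 members higher and 2 lower in JX, and 2802 and 1543 of all tested genes. The log2 difference had a median of 0.20 over the members and 0.03 over all tested genes. It was above 0 in 120 of 150 members and in 56.5% of all tested genes. Without JX silenced 4 the median was -0.02, with 68 of 150 above 0. The smallest p among members higher in JX silenced was that of Gh_D12G233000, on chromosome D12. It had 5.33, 4.57, 4.42 and 10.05 FPKM in JX silenced and 3.11, 4.43, 3.17 and 3.72 FPKM in 3798 silenced libraries, apart except for 1 value. The log2 difference was 0.62 (SE 0.191), and 0.37 without JX silenced 4.

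**Figure D5:**
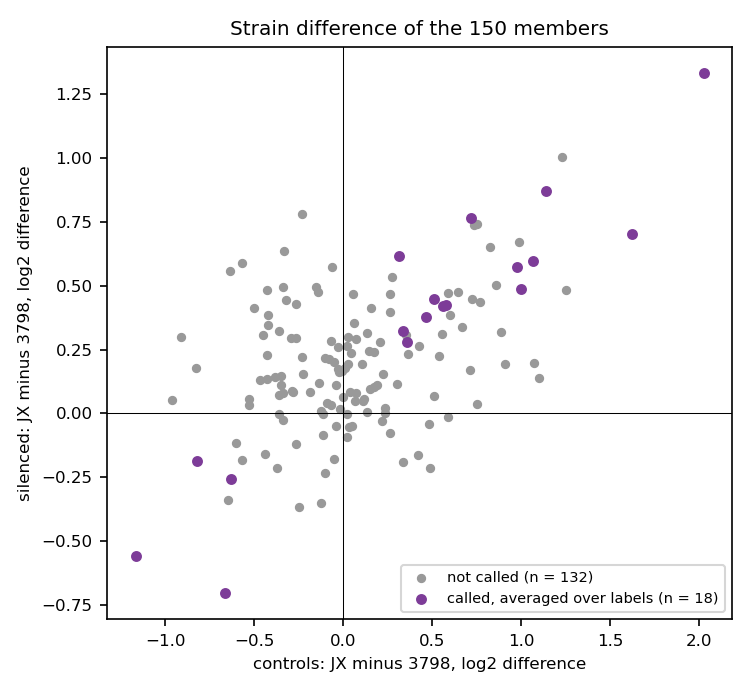
Log2 difference of JX minus 3798 in control libraries (x) and in silenced libraries (y), which share no library, for the 150 members. Purple points are the 18 members called for the difference averaged over labels, 14 higher and 4 lower in JX; most grey points lie above 0 on the y axis, where JX silenced 4 enters.

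The members whose ratios of medians differed most between the strains, given without a test since the fall chose them, were Gh_D02G066600 and Gh_A06G001800. By the fitted difference between the strains in the fall, they stood at -0.96 and 0.97 in log2, and 6 other members were at 1 or more in size. Gh_D02G066600, on chromosome D02, had a ratio of 5.87 in JX and 2.62 in 3798. Its values were 1.11, 1.55, 0.666 and 2.42 FPKM in JX silenced and 0.632, 1.20, 1.05 and 2.07 FPKM in 3798 silenced libraries, against 6.06, 7.12, 8.44 and 8.72 FPKM in JX control and 2.32, 3.54, 8.07 and 1.48 FPKM in 3798 control libraries. The strains were alike when silenced, and 3798 control 3 was at the level of the JX controls. Gh_A06G001800, on chromosome A06, had a ratio of 3.37 in JX and 7.57 in 3798. It had 2.32, 1.40, 1.28 and 4.86 FPKM in JX silenced and 0.604, 0.889, 1.66 and 2.12 FPKM in 3798 silenced libraries, against 5.95, 5.81, 11.03 and 6.56 FPKM in JX control and 6.41, 11.1, 9.66 and 9.66 FPKM in 3798 control libraries.

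The members were spread over the genome. By ID, 61 lay on A and 82 on D chromosomes, 5 were newGene IDs and 2 lay on contigs. That is 40.7% and 54.7% of the members on A and D chromosomes, where 43.4% and 44.8% of all tested genes lie, and 3.33% newGene IDs, against 10.4% of all tested genes. Every chromosome held at least 1 member. The most were on D12, with 10, and on D05, D09 and D11, with 9 each. D03 had 1. These are counts, with no test of any chromosome.

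Of 285 tested IDs next to a member in the numbering of its chromosome, 15 (5.26%) had a ratio of at least 2 in both strains, against 2.09% of all 48548 tested IDs on chromosomes. Of these 15, 8 were members themselves, all of which have such ratios by the choice. With members left out of both sides it was 7 of 277 (2.53%), against 1.80% of 48405. Within 5 IDs on either side it was 3.36% of 1368 with members and 2.22% of 1352 without them. Among the tested IDs 4 pairs of members were next to each other among the tested IDs. Gh_D11G150200 and Gh_D11G150300 were both steady. The first had 9.43, 8.63, 8.18 and 11.6 FPKM in JX silenced and 7.95, 10.05, 8.73 and 8.18 FPKM in 3798 silenced libraries, against 21.5, 31.1, 29.7 and 30.2 FPKM in JX control and 23.7, 22.6, 29.9 and 22.9 FPKM in 3798 control libraries. The second had means of 4.54 ± 0.279 and 4.31 ± 0.877 FPKM in JX and 3798 silenced libraries, against 11.7 ± 1.77 and 14.9 ± 1.28 FPKM in JX and 3798 controls (SD, n = 4). Both genes of this pair were apart between the labels in each strain.

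The pair Gh_A07G169200 and Gh_A07G169300 was unsteady in some of the same libraries. Gh_A07G169200 had 31.4, 42.9, 15.9 and 133 FPKM in JX silenced and 23.2, 23.2, 19.5 and 43.8 FPKM in 3798 silenced libraries, against 65.6, 132, 79.1 and 123 FPKM in JX control and 77.7, 40.5, 105 and 25.2 FPKM in 3798 control libraries. Gh_A07G169300 had 7.37, 4.34, 1.20 and 24.99 FPKM in JX silenced and 1.87, 3.07, 2.56 and 16.2 FPKM in 3798 silenced libraries, against 36.6, 29.4, 39.7 and 34.2 FPKM in JX control and 10.4, 15.4, 32.2 and 7.91 FPKM in 3798 control libraries. Library 4 was the highest silenced library of both strains for both genes. In 3798 controls both were highest in library 3 and lowest in library 4. In JX controls the first was highest in library 2, where the second was lowest. Reads shared between copies of similar sequence could tie such neighbours together, which could not be checked without sequences.

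The genes of the pair Gh_A08G206700 with Gh_A08G207100 were less alike. Gh_A08G206700 averaged 3.71 ± 0.479 and 4.65 ± 1.39 FPKM in JX and 3798 silenced libraries, against 13.6 ± 2.92 and 21.3 ± 4.22 FPKM in JX and 3798 controls (SD, n = 4). Gh_A08G207100 averaged 2.63 ± 1.74 and 2.15 ± 1.44 FPKM in JX and 3798 silenced libraries, against 11.6 ± 0.636 and 5.596 ± 2.48 FPKM in JX and 3798 controls (SD, n = 4). In controls the mean of the first was lower and that of the second higher in JX than in 3798. In the last pair, Gh_D13G055100 and Gh_D13G055300, both genes were highest among controls of their strain in JX control 3 and 3798 control 2. Among JX silenced libraries the first was highest in library 1 and the second in library 4. Gh_D13G055100 averaged 1.37 ± 0.505 and 1.33 ± 0.624 FPKM in JX and 3798 silenced libraries, against 3.92 ± 1.84 and 5.87 ± 2.83 FPKM in JX and 3798 controls (SD, n = 4). Gh_D13G055300 averaged 4.06 ± 1.03 and 3.54 ± 0.945 FPKM in JX and 3798 silenced libraries, against 15.2 ± 5.04 and 16.1 ± 8.34 FPKM in JX and 3798 controls (SD, n = 4).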

How the data were processed

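Groups and replicate numbers came from the sample titles, and table columns were matched to samples by the code in each description. The authors deposited 1 table of FPKM for 70422 gene IDs, a unit read from the table's name and its fractional values. How reads were aligned and counted, and against which build, is not given in the sources used here. Among 66538 low values, only 13.1% were whole multiples (tolerance 0.02) of the smallest value seen for that gene, so whole reads were not recovered and no count model was used. No 2 columns were identical. None of the IDs (0) matched a RefSeq table of 99454 genes, so the planned gene lists were not used.

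Genes with 4 or more libraries reaching 0.5 FPKM (55040, all 150 members among them) were fitted with limma 3.58.1 in R 4.3.3 on log2(FPKM + 0.5), which understates changes of low genes, over all 16 libraries with 1 mean per group, using limma's trend and robust options. P-values were two-sided and adjusted over all genes after Benjamini and Hochberg. The procedure was tried on simulated data for the averaged strain difference only, with independent errors of equal spread in all libraries. Libraries of unequal spread or with shared deviations, as found here, were not simulated. Python 3.11.15 with numpy 2.4.6, pandas 2.3.3 and matplotlib 3.10.9 made the choice of members and the figures. Members and comparisons were chosen with earlier results of these data known. Named IDs are the first 2 in rank, the 2 most abundant, the extremes of the strains' fold ratio, the first newGene, the members with the smallest p per strain contrast and direction, those at the limits of the rule, and adjacent members. Members named for a strain difference averaged over labels were taken by p alone, since no member separated all 8 JX from all 8 libraries of 3798. Alternatives were other pseudocounts, filters and scalings, a replicate block, library weights, fits to compared groups only and each library left out. Fits without JX silenced 4 and 3798 silenced 4, with or without 3798 control 3, were added after the data were seen.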

Additional observations from a re-analysis of the deposited data

Results flagged for a closer look

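Values of 1 library far from the other 3 of its group were looked for in 108 groups of 4 values. The values were those of the members named above and of 3 summaries over all members. With independent, normally distributed values about 5% of groups would be marked. The members were named for their values and share their libraries, so the 5% is no measure of an excess here. Of the 108 groups, 17 were marked. In JX silenced 4 these were Gh_D01G117700 at 59.8 FPKM (next library 22.7), newGene_20487 at 11.4 (next 3.24), Gh_D08G079900 at 4.25 (next 2.35), Gh_A05G352500 at 4.66 (next 1.72) and Gh_D12G233000 at 10.05 (next 5.33). In 3798 silenced 4 they were Gh_D09G222200 at 6.18 FPKM (next 1.40), Gh_A07G169200 at 43.8 (next 23.2), Gh_A07G169300 at 16.2 (next 3.07) and Gh_A08G207100 at 4.30 (next 1.74). In 3798 silenced 2 newGene_20487 was at 4.68 FPKM (next 2.78).

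Among controls, JX control 1 was low for Gh_D09G222200 at 28.8 FPKM (next 44.8), for Gh_A08G047400 at 11.51 (next 12.8), for Gh_D11G150200 at 21.5 (next 29.7) and for Gh_D11G150300 at 9.12 (next 12.3). JX control 3 was high for Gh_A06G001800 at 11.03 FPKM (next 6.56). In 3798 control 3, Gh_D09G222200 was at 40.1 FPKM (next 7.86) and Gh_D11G150200 at 29.9 (next 23.7). Over all 150 members such a far value fell in JX silenced 4 for 31 members and in 3798 silenced 4 for 15, and in each of the other 14 libraries for at most 7.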

How the results depend on the processing

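When each library was left out in turn, the fall itself was called in 123 to 147 members in JX and in 123 to 142 in 3798. Of all tested genes, 19.5% to 32.9% were called in either direction in JX and 8.62% to 15.7% in 3798. The fall chose the members, so these counts of members follow from the choice. No named member changed direction under any alternative. The number of members called for a strain difference was less settled, and so was the share of all genes fitted that was called, given in brackets. Averaged over labels the number of members was 18 (21.4%), with 38 under library weights (33.9%). It was also 38 without JX silenced 4, 3798 silenced 4 and 3798 control 3 (31.9%). Without each library in turn it ran from 8 without 3798 control 2 (13.7%) to 31 without 3798 control 3 (32.5%). In controls it was 16 (29.8%), with 10 at a pseudocount of 0.1 (29.7%) and 10 with no filter on low values (22.3%). It was 45 under library weights (43.2%) and 33 in a fit to the 8 control libraries (25.2%), where the share fell while the number of members rose. Without JX silenced 4 and 3798 silenced 4 it was 37 (32.5%), and without these and 3798 control 3 it was 49 (42.0%). Without each library in turn it ran from 4 without 3798 control 2 (19.3%) to 30 without JX silenced 4 (31.8%). In silenced libraries the number of members called was 0 under every alternative. The cause of these shifts was not tested.

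The limits of the rule admitted 331 genes, 190 with silenced medians of at least 2 FPKM, of which 77 were among the 150 members, and 278 to 376 without each library in turn, when 131 to 144 of the first 150 were members. With group means in place of medians 110 of the first 150 were members. Deviations of samples with the same replicate number correlated between -0.37 and 0.36, with 5 of 24 pairs over 0.1, the highest being JX silenced 4 with 3798 silenced 4, so the numbers were not taken as pairs. With a replicate block, 15 members were called for the strain difference averaged over labels, where 19.7% of all tested genes were. In controls 11 were called, where 28.3% of all tested genes were, and in silenced libraries 0, where 0% were. For silencing, which chose the members, 141 were called in JX and 131 in 3798, where 27.0% and 12.1% of all tested genes were. Absolute depth is unknown, so no limit from counting error can be given for members near 1 FPKM.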
